A study of Mus musculus with 6 samples.

Results

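The Dickkopf genes Dkk1, Dkk2 and Dkk3 and the Kremen receptor genes Kremen1 and Kremen2 were examined in osteocytes, the cells embedded in bone matrix, from mice with and without estrogen receptor alpha (ERα) in these cells. Members were all probe sets, the groups of short array probes that read a transcript, whose platform annotation names 1 of these genes and no other. This gave 8 of 34945 probe sets of a single gene: 2 for Dkk1, 1 for Dkk2, 2 for Dkk3 and 3 for Kremen1. No probe set was assigned to Kremen2, which was not analysed here. The 4 measured genes stand among 18193 with a probe set, and all 4 passed the filter on low levels that left 10916 genes for testing.

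The 6 Affymetrix arrays held 3 control and 3 knockout samples of calvarial cells sorted for green fluorescent protein driven by Dmp1, a marker that both genotypes carried. Knockout mice are named ERαΔOcy/ΔOcy, and the controls are called wild-type littermates in the sample names and ERαflox/flox in the protocol. All are labelled female C57/BL6 mice of 10 to 12 days. The sources used here give neither the Cre driver nor the Cre status of the controls, so an effect of Cre and one of ERα loss cannot be told apart. The series text says RNA was not pooled while the protocol speaks of pooled calvarial tissue, so the p-values measure the spread between these arrays, which may not be that between mice.

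Wnt proteins activate β-catenin signalling by bringing Frizzled receptors together with the co-receptors LRP5 and LRP6. DKK1 is a secreted protein that binds LRP5 and LRP6 and blocks this step, and Kremen proteins are membrane receptors that bind DKK1 and help remove LRP6 from the cell surface. DKK2 binds the same co-receptors and can inhibit or activate, depending on the cell. DKK3 is a divergent relative that does not act on LRP6 in the manner of DKK1. In bone, osteoblasts and osteocytes are the main source of DKK1, which restrains bone formation, and Dkk1 is itself a target of β-catenin signalling.

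The sorted cells had high signals of Dmp1, between 5636.7 and 7983.3 on the deposited linear scale, and of the osteocyte gene Phex, between 1775.9 and 2385. Sost lay between 54.4 and 147.3, Mepe between 14.3 and 60.7, and Fgf23 was under the level filter. Esr1, which encodes ERα, had signals of 83.3 to 115.4 in control and of 76.1 to 123.8 in knockout arrays. The sources used here do not say which part of Esr1 was deleted or where its probes lie, so this does not check the labels. Control replicate 2 stood apart in skeletal muscle RNA: the deposited signals of 14 muscle genes summed to 291.6 on it, to 40775.2 and 34554.2 in control replicates 1 and 3, and to between 5115.5 and 23517.6 in knockout arrays. All results on the members are therefore also given without that array where it changes them.

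Dkk1 was the member with the largest difference and the only 1 of the 4 that lay lower in the knockout arrays. Its brighter probe set, 1420360_at, had deposited signals of 1274.5, 629.9 and 905.8 in control replicates 1, 2 and 3. The knockout replicates 1, 2 and 3 had 558.0, 611.5 and 678.7. Control replicates 1 and 3 were thus above every knockout array, while control replicate 2 lay between knockout replicates 2 and 3.

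After quantile normalisation, which gives all arrays the same distribution of log2(signal + 16), the Dkk1 levels were 10.27, 9.44 and 10.04 in control and 9.20, 9.35 and 9.12 in knockout replicates 1, 2 and 3. On this scale the groups did not overlap, by the narrow gap between control replicate 2 and knockout replicate 2. The controls averaged 9.92 ± 0.43 and the knockout arrays 9.22 ± 0.12 (SD, n = 3 each), a difference of -0.70 with a 95% interval of -1.17 to -0.22, or 1.62-fold lower. It did not pass in limma over all 10916 genes tested (adjusted p = 0.349), and its p ranked 312 among them. In whole sorted samples, fewer Dkk1-expressing cells and less Dkk1 RNA per cell cannot be told apart.

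The second Dkk1 probe set, 1458232_at, repeated this order on dimmer signals. Its deposited values were 196.1, 91.5 and 117.7 in control and 89.4, 91.5 and 92.6 in knockout arrays. The knockout arrays lay within a few units of each other, control replicate 2 had the same value as knockout replicate 2, and the other controls were higher. The difference was -0.58 ± 0.21 (SE), with an adjusted p of 0.510 in limma over all 45037 probe sets that are not array controls. Across the 6 arrays both probe sets had a Pearson's r of 0.97, which describes the same samples read by both.

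**Figure D1:**
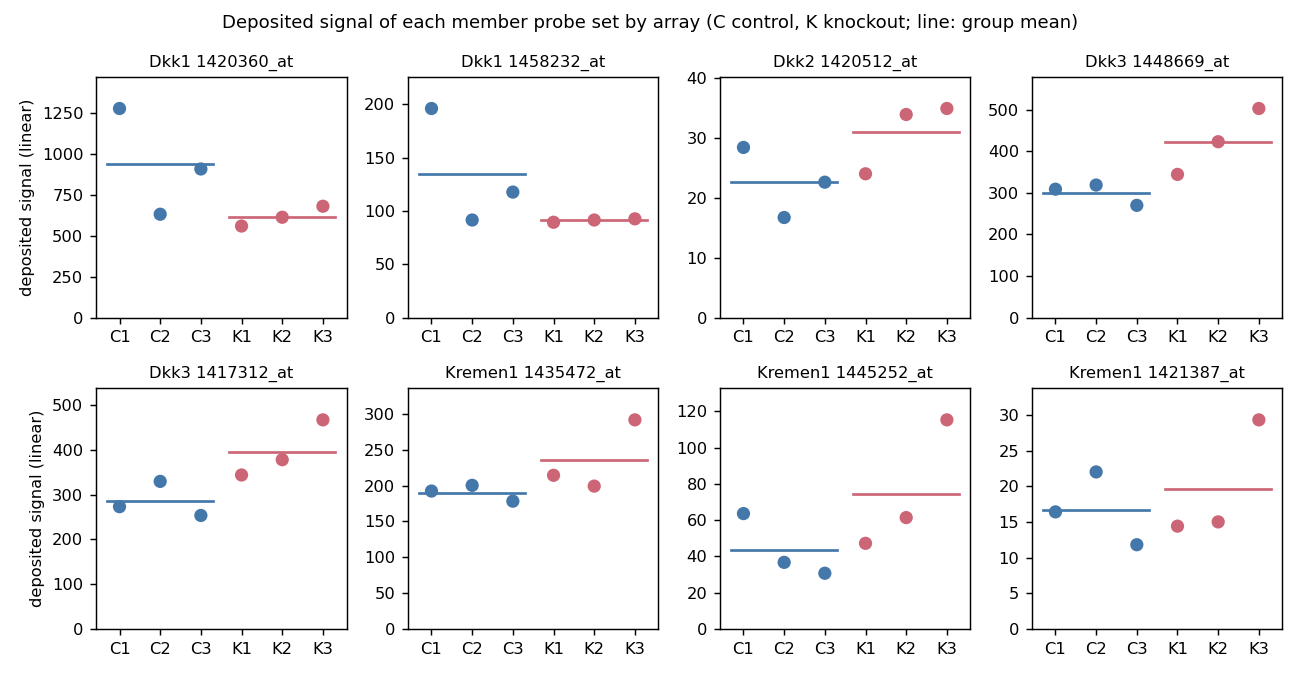
Deposited linear signal of the 8 probe sets of Dkk1, Dkk2, Dkk3 and Kremen1 on each array, with C1 to C3 for control and K1 to K3 for knockout replicates and a line at each group mean. In both Dkk1 panels control replicates 1 and 3 stand above all knockout arrays and control replicate 2 among them, while in both Dkk3 panels every knockout array is above every control array.

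The stretch just before the annotated start of Dkk1 is shown because it carries matches to the core motif of the TCF and LEF factors that β-catenin works through, and that before Dkk2, which has none, stands beside it. Both are RefSeq sequences of mouse build GRCm38.p6, printed 5′ to 3′ on the gene's strand, from chr19:30549497-30549746 on the minus strand for Dkk1 and chr3:132085042-132085265 on the plus strand for Dkk2. The promoter table matched 3 of the 5 genes, Dkk1, Dkk2 and Kremen2, and not Dkk3 and Kremen1. Capitals mark CTTTGA or its reverse complement.
Dkk1: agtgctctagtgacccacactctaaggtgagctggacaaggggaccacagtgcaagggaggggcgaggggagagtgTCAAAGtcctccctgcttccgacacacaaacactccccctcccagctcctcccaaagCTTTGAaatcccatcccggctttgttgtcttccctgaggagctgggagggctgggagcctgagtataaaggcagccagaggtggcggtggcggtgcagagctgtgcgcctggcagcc
Dkk2: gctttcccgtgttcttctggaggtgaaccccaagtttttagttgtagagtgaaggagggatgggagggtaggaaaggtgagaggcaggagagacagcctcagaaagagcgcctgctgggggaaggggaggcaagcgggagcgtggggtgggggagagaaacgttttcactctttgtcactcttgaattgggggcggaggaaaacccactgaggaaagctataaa

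On either strand, CTTTGA was found 2 times in the 300-base Dkk1 window around the start, with matches beginning 174 and 117 bases before it. It was found 0 times in the windows of Dkk2 and Kremen2, while 16.0% of all 32851 windows of this length held it. The estrogen response half-site AGGTCA, present on either strand in 16.3% of all 32851 windows, had 0 matches in the windows of Dkk1, Dkk2 and Kremen2. A match is a run of letters and not a measured binding site, and these windows are short.

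Leaving out control replicate 2 was the 1 setting under which Dkk1 passed the threshold. The difference was then -0.93 ± 0.12 (SE, limma adjusted p = 0.0134), in a comparison in which 1.94% of all genes passed as lower. Among marker genes, 6 of 9 pericyte and smooth muscle, 6 of 9 fibroblast and 3 of 12 skeletal muscle genes passed as lower there. In the other direction 5 of 14 chondrocyte genes passed, against 0.788% of all genes. Whether the low muscle RNA of control replicate 2 accounts for the shift in the Dkk1 difference was not tested. The second probe set, without that array, differed by -0.78 ± 0.18 (SE, limma adjusted p = 0.155 over all probe sets), and the brighter probe set had an adjusted p of 0.0370 in that same limma fit, where 0.271% of probe sets passed as lower. With any other single array left out, the brighter probe set gave differences from -0.76 to -0.52 and did not pass. The second probe set was at -0.38 without control replicate 1.

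Scaling also bears on Dkk1. With the values as deposited, the difference was -0.54 ± 0.23 (SE, limma adjusted p = 0.593), the groups overlapped, and the median of all genes tested lay at 0.14 against -0.01 after quantile normalisation. With the deposited scaling and without control replicate 2 it was -0.79 ± 0.26 (SE), with a limma adjusted p of 0.0979. Every setting tried kept Dkk1 lower in the knockout arrays, and the size ran from -0.93 to -0.52.

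**Figure D2:**
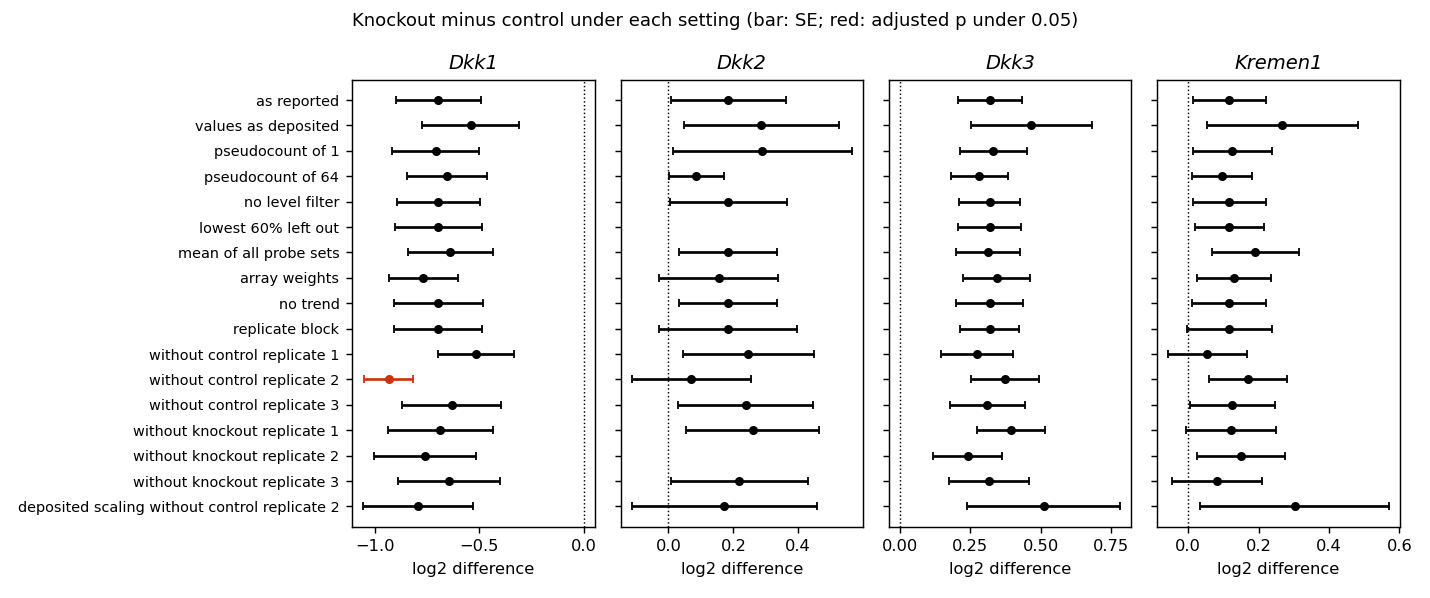
Knockout minus control on the log2 scale for the 4 measured genes under each setting, with the SE as a bar and red for an adjusted p under 0.05. The single red point is Dkk1 without control replicate 2, at -0.93, and a missing point means that Dkk2 was under the level filter there.

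The spread of Dkk1 between arrays lay mostly in the controls. Its control SD of 0.43 was at percentile 89.9 of the genes tested, and its knockout SD of 0.12 at percentile 46.8. Marker lists of other cell types varied over the same arrays. The mean centred level of 12 tested skeletal muscle genes was 1.96, -3.56 and 1.89 in control replicates 1, 2 and 3, and that of 9 suture and adventitial fibroblast genes was 0.82, -0.81 and 0.63. Pericyte and smooth muscle genes, 9 in all, had 0.39, -0.40 and 0.61, and 8 osteocyte genes other than Dkk1 had 0.06, -0.30 and 0.32. In each of these lists, as for Dkk1, control replicate 2 was the lowest control, and so it was for chondrocyte genes. Other lists differed: osteoblast genes had -0.03, 0.06 and -0.03, with control replicate 2 the highest. Control replicate 1 was the lowest control for macrophage and osteoclast, endothelial, and meningeal and arachnoid genes, at -0.95, -0.22 and -0.47.

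In knockout replicates 1, 2 and 3 the muscle level was -0.56, -0.63 and 0.90 and the osteocyte level -0.06, 0.06 and -0.09. Knockout replicate 3, with the most muscle RNA, had the lowest Dkk1 level of the knockout arrays after quantile normalisation and the highest deposited Dkk1 signal on both probe sets. Of the 8 osteocyte genes 6 lay below control and 2 above it, with a median difference of -0.13. Dmp1 was at -0.30 ± 0.10 and Phex at -0.03 ± 0.08 (SE). The 2 above control were Sost, at 0.21 ± 0.30, and Mepe, at 0.45 ± 0.30 (SE). Pericyte genes lay between -0.26 and -0.17 and fibroblast genes between -0.30 and -0.10 in knockout arrays. None of the markers in these lists was at 0 on all arrays. Summed deposited signals of the pericyte list ran from 14955.9 to 24324.8 in control and from 14873.9 to 17974.2 in knockout arrays, and those of the fibroblast list from 3583.8 to 7769.3 and from 3609.6 to 5539.8. The part of these cell types in the Dkk1 difference was not tested.

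**Figure D3:**
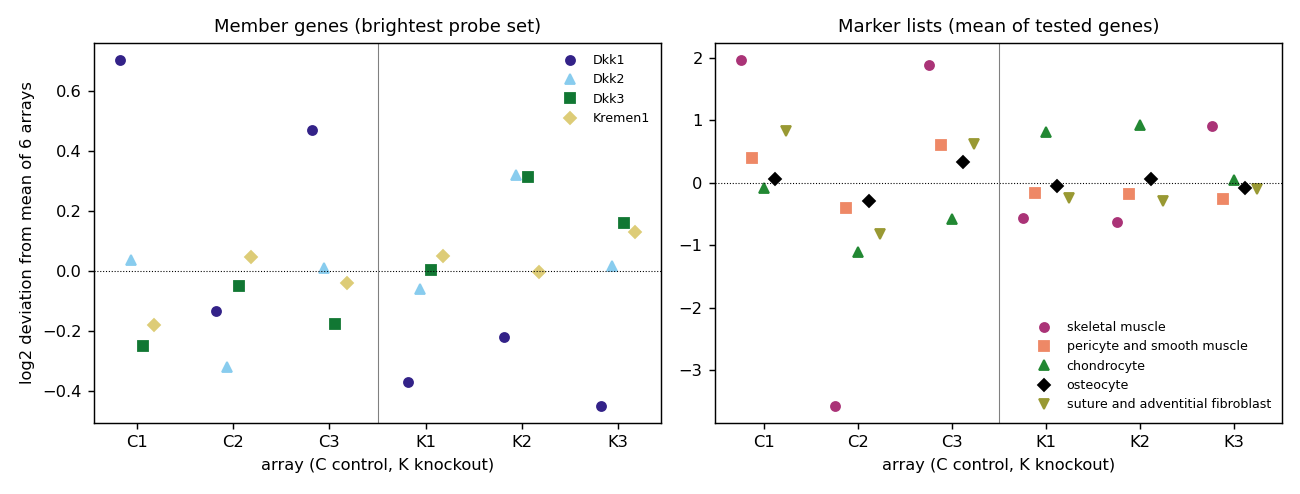
Left, log2 deviation of Dkk1, Dkk2, Dkk3 and Kremen1 from their mean over the 6 arrays; right, mean deviation of the tested genes of 5 marker lists, by array, with symbols set side by side within an array. Control replicate 2 is the lowest control for Dkk1, at -0.13, and for skeletal muscle genes, at -3.56.

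Dkk3 lay higher in the knockout arrays, on both of its probe sets and under both scalings. Its brighter probe set, 1448669_at, had deposited signals of 309.1, 319.1 and 270.2 in control and of 344.7, 423.4 and 503.4 in knockout replicates 1, 2 and 3. Each knockout array was above each control array, as for 12.4% of all genes with the deposited scaling. After quantile normalisation the controls averaged 8.37 ± 0.10 and the knockout arrays 8.69 ± 0.15 (SD, n = 3 each), a difference of 0.32 with a 95% interval of 0.05 to 0.58, or 1.25-fold higher. It did not pass in limma (adjusted p = 0.414), nor under any setting tried, where the adjusted p was 0.184 or more.

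The other Dkk3 probe set, 1417312_at, had 273.3, 329.9 and 253.7 in control and 344.2, 378.4 and 467.5 in knockout arrays. Control replicate 2 was the highest control here, close under knockout replicate 1. The difference was 0.31 ± 0.12 (SE, limma adjusted p = 0.556 over all probe sets). Without control replicate 2 it was 0.42 ± 0.10 (SE, limma adjusted p = 0.176 over all probe sets). The brighter probe set was at 0.37 without that array. With the deposited scaling the brighter probe set differed by 0.47, above the median of all genes of 0.14 on that scale. Among the marker lists, the mean of the 14 chondrocyte genes was also higher in every knockout array than in any control array, with centred levels of -0.09, -1.11 and -0.59 in control and 0.81, 0.92 and 0.05 in knockout replicates 1, 2 and 3. Taken singly, 10 of the 14 were higher and 1 lower without overlap of the groups, against 9.23% and 7.76% of all genes. Their summed signals ran from 2888.9 to 5696.1 and from 6230.5 to 8981.6, none was at 0, and their part in the Dkk3 difference was not tested.

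Dkk2 was dim and just above the level filter. Its single probe set, 1420512_at, had deposited signals of 28.4, 16.7 and 22.6 in control and of 24.0, 33.9 and 34.9 in knockout replicates 1, 2 and 3. Knockout replicate 1 lay among the controls and control replicate 2 was the lowest array. The log2 level averaged 5.31 ± 0.20 over the controls and 5.49 ± 0.20 over the knockout arrays (SD, n = 3 each), a difference of 0.18 with a 95% interval of -0.23 to 0.60 (limma adjusted p = 0.753). The filter stood at 5.37, and Dkk2 fell under it without knockout replicate 2 and when the lowest 60% of genes were left out. Without control replicate 2 its difference was 0.07, and the offset of 16 is close to its signal, so the log2 values understate any change. With an offset of 1 the difference was 0.29, and with 64 it was 0.09.

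Kremen1, the receptor measured here, was read by 3 probe sets that did not follow one another closely. The brightest, 1435472_at, had signals of 192.4, 200.4 and 178.3 in control and of 214.4, 199.3 and 291.8 in knockout arrays. Knockout replicate 2 lay within the controls, so the groups overlapped. Its log2 level averaged 7.76 ± 0.12 over the controls and 7.88 ± 0.07 over the knockout arrays (SD, n = 3 each), a difference of 0.12 with a 95% interval of -0.13 to 0.36 (limma adjusted p = 0.728). With the deposited scaling the difference was 0.27, against 0.14 for the median of all genes, and without control replicate 1 it was 0.05. Without control replicate 2 the difference was 0.17, with a limma adjusted p of 0.505.

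The probe set 1445252_at of Kremen1 had 63.6, 36.7 and 30.7 in control and 47.2, 61.4 and 115.3 in knockout arrays, a difference of 0.44 ± 0.23 (SE, limma adjusted p = 0.647 over all probe sets). Control replicate 1 lay above knockout replicates 1 and 2. Without knockout replicate 3 this difference was 0.26, and without control replicate 1 or knockout replicate 1 it was 0.61 or 0.63. The dimmest, 1421387_at, had 16.4, 22.0 and 11.8 in control and 14.4, 15.0 and 29.3 in knockout arrays, a difference of 0.01 ± 0.19 (SE), or -0.08 to 0.14 with 1 array left out. Knockout replicate 3 had the highest deposited signal on all 3, and it also had the highest median signal of the 6 arrays, 28.6 against 18.7 to 22.7. Over the arrays the pairwise Pearson's r of the 3 probe sets lay between 0.25 and 0.57, against 0.92 for the pair of Dkk3.

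**Figure D4:**
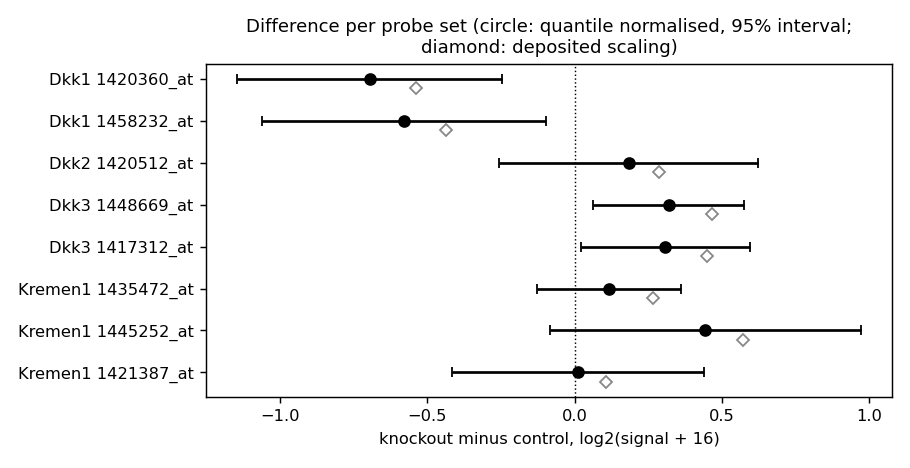
Knockout minus control on the log2(signal + 16) scale for each of the 8 probe sets, as circles with 95% intervals after quantile normalisation and as diamonds with the deposited scaling. Both Dkk1 probe sets lie below 0, at -0.70 and -0.58, both of Dkk3 above it, at 0.32 and 0.31, and the intervals of Dkk2 and of all 3 Kremen1 probe sets span 0.

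Across the 4 measured genes, 3 lay higher and 1 lower, with a median difference of 0.15 against -0.01 over all genes tested. None passed an adjusted p of 0.05 in limma with all 6 arrays after quantile normalisation, as for 0% of all genes. At an unadjusted p under 0.05 there were 2, Dkk1 and Dkk3, where the share over all genes was 10.5%. Groups did not overlap for the same genes, 1 lower and 1 higher, against 7.76% of all genes lower and 9.23% higher. Of the 8 probe sets, 6 lay above 0, and groups did not overlap for 2 lower and 2 higher, against 6.59% and 7.57% of all probe sets. An unadjusted p under 0.05 in limma was found for 4 of the 8, against 8.48% of all probe sets, and an adjusted one for 0. These 4 were both probe sets of Dkk1 and both of Dkk3, so they repeat the same 2 genes. The shares over all probe sets include dim ones, since no level filter was used there.

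After quantile normalisation Dkk1 lay lower and Dkk3 higher than control, each without overlap, so their ratio within an array had to separate the groups. Their log2 levels differed by 2.00, 0.96 and 1.69 in control and by 0.67, 0.51 and 0.43 in knockout replicates 1, 2 and 3, as Dkk1 minus Dkk3. With the deposited scaling the values were 1.99, 0.95 and 1.69 against 0.67, 0.51 and 0.42. A ratio within an array largely cancels scaling, so this agreement adds no separate evidence. The change of this log2 ratio was -1.01, and -0.79, -1.31 and -0.94 without control replicate 1, 2 or 3. The pair was set side by side after its values were known, so no test was made, and the ratio says nothing of which RNA is more abundant.

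Other genes followed the members' patterns over the 6 arrays. Among 4410 genes with an SD of at least 0.2, Rasa3, a GTPase-activating protein, Asb8 and the ADP-ribosyltransferase family gene Art3 were closest to Dkk1, with a Pearson's r of 0.99 each. Art3 had log2 levels of 7.78, 6.71 and 7.34 in control and of 6.45, 6.56 and 6.49 in knockout replicates 1, 2 and 3, with control replicate 2 next to the knockout arrays as for Dkk1. An r over 0.95 with Dkk1 was reached by 39 genes. Closest to Dkk3 were the co-chaperone gene Fkbp5, the translocon gene Sec61a2 and Prr5l, each at 0.98, with differences of 0.31, 0.36 and 0.51. Sft2d3, Atad2 and Stk16 were closest to Dkk2, at 0.98, 0.97 and 0.96, and Gcg, Atp8a1 and Pla2g12b to Kremen1, at 0.99, 0.98 and 0.98. With 6 arrays and so many genes such values describe these samples, which share array and scaling, and none of the 12 genes passed in limma (adjusted p of 0.316 or more).

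Of the co-receptors that DKK1 binds, Lrp6 lay higher in the knockout arrays, at 7.73 ± 0.04 in control and 8.10 ± 0.21 (SD, n = 3 each, limma adjusted p = 0.402), without overlap of the groups. Lrp5, at 0.08 ± 0.14, and Lrp4, which binds sclerostin, at 0.04 ± 0.15 (SE), overlapped between groups. Among 13 tested genes of other Wnt antagonists 11 lay above control and 2 below it, against 48.3% of all genes above 0, and the median difference was 0.25. None passed in limma with all 6 arrays after quantile normalisation. With the deposited scaling Shisa3 passed (limma adjusted p = 2.49e-05), where 30 of 10916 genes passed, all higher. An unadjusted p under 0.05 was found for 4, all higher, against 10.5% of all genes in either direction, and the groups did not overlap for 3, all higher, against 9.23% of all genes. Shisa3, a Wnt and FGF modulator of the endoplasmic reticulum, differed by 1.93 ± 0.23, Sostdc1 by 0.62 ± 0.16, Shisa2 by 0.32 ± 0.12, and Sost, which encodes sclerostin, by 0.21 ± 0.30 (SE), or -0.09 without control replicate 2. No tested gene of that list lay as far below control as Dkk1: the 2 lower ones were Notum at -0.13 and Frzb at -0.06, named after their values were seen, and both were above 0 with the deposited scaling, at 0.0044 and 0.08. Without control replicate 2, 2 of the 13 passed as higher and 0 as lower, in a comparison where 0.788% of all genes passed as higher.

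Wnt ligands had 6 of 19 listed genes above the level filter, 5 higher and 1 lower. Wnt9a differed by 0.86 ± 0.12 and Wnt4 by 0.33 ± 0.24 (SE), and Wnt9a passed without control replicate 2 (limma adjusted p = 0.0175). Of 10 Frizzled receptor genes 6 lay above control and 4 below, with Fzd2 at 0.56 ± 0.16, Fzd1 at 0.56 ± 0.13 and Fzd3 at -0.32 ± 0.12 (SE). For these 3 the groups did not overlap, against 17.0% of all genes in either direction.

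Inside the cell, 10 of 13 transducers of the β-catenin pathway lay above control and 3 below it, and the list median was 0.04. The groups did not overlap for all 3 lower ones and for 1 of the 10 higher ones, against 7.76% of all genes lower and 9.23% higher. Gsk3b, a kinase that marks β-catenin for destruction, differed by -0.30 ± 0.10, and the transcription factor genes Tcf7l2 and Tcf7l1 by 0.32 ± 0.11 and 0.38 ± 0.17 (SE). The same count, 10 of 13, held for Wnt target genes, whose median was 0.15. Axin2, a feedback inhibitor and common readout of the pathway, differed by 0.15 with a 95% interval of -0.34 to 0.64, and Lef1 by 0.02 ± 0.17 (SE). Ccnd1, a G1 cyclin, and Tnfrsf19 differed by 0.34 ± 0.13 and 0.42 ± 0.17, and Bambi, a pseudoreceptor of the TGF-β family, by -0.32 ± 0.08 (SE). In limma with all 6 arrays and quantile normalisation 0 members of these 4 lists passed, while an unadjusted p under 0.05 was found for 1 ligand, 3 receptors, 2 transducers and 3 targets, where it was found for 10.5% of all genes. With the deposited scaling the list medians lay higher, at 0.18 for ligands, 0.25 for receptors, 0.19 for transducers and 0.28 for targets, where the median of all genes was 0.14. On that scale 13 of 13 other antagonists, 6 of 6 ligands, 9 of 10 receptors, 11 of 13 transducers and 12 of 13 targets lay above 0, against 76.4% of all genes, while Dkk1 was at -0.54. With the deposited scaling and all 6 arrays Wnt9a also passed (limma adjusted p = 0.0428), where 30 of 10916 genes passed, 30 higher and 0 lower.

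**Figure D5:**
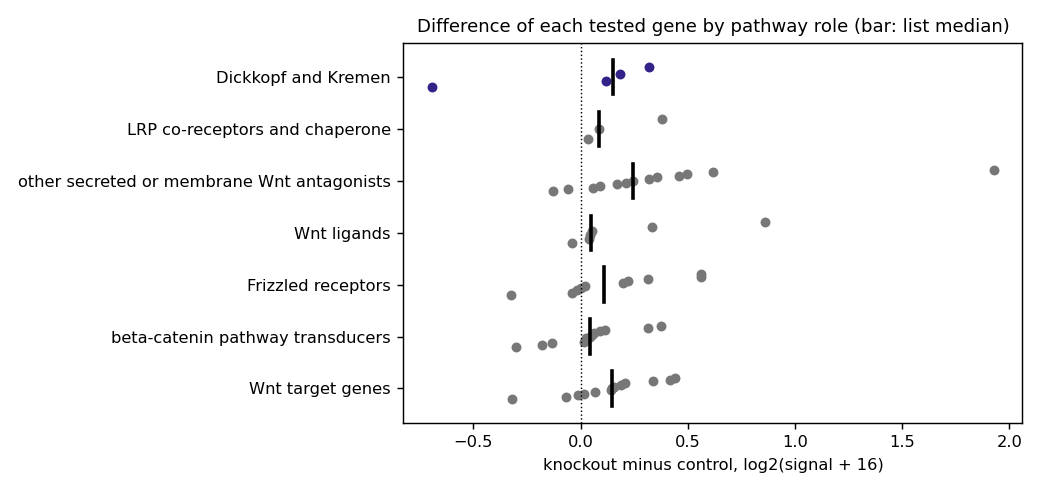
Knockout minus control on the log2(signal + 16) scale for each tested gene by its place in the Wnt pathway, with a bar at the list median. Dkk1, at -0.70, is the lowest point drawn, and Shisa3, at 1.93, the highest.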

How the data were processed

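Each deposited value is an intensity of 1 probe set on 1 array, in linear units. Per the submitters' processing notes the tool was GCOS, with no version, and the sources used here give no background correction, probe summary or scaling target. With 3 arrays a group, precision is limited by their number. From the deposited values log2(signal + 16) was computed and quantile normalised over 45037 probe sets, after 64 array controls were left out. Symbols came from the platform annotation, updated through RefSeq gene identifiers. Each gene was represented by its probe set of highest mean, and the 40% of genes with the lowest means were not tested. Both genotypes were compared with limma 3.58.1 in R 4.3.3 (lmFit, eBayes with trend, no covariate, 2-sided), with Benjamini-Hochberg adjustment at 0.05. A second fit without the filter covered every probe set. Of these steps only the limma fit was tested on simulated data, with planted changes larger than the differences of the members. Detection calls were not used, and dim probe sets carry no bound.

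The named genes are the members, up to 3 genes of each pathway list with the smallest p, Lrp5, Lrp6, Lrp4, Sost, Axin2 and Lef1, and the 3 genes most like each member. Members and lists were chosen with earlier results of these data known. Mesd and Tcf7, and Bglap, Spp1, Runx2 and Ly6a of the marker lists, were not analysed here, since no probe set names them alone. A list's level is the mean of its tested genes, each centred over the 6 arrays. Alternatives covered the scaling, offset, filter, probe set summary, array weights, trend, a replicate block and each array left out. The deposited scaling without control replicate 2 was added after seeing the data. Same-numbered arrays of both groups deviated from their group means with correlations of -0.38, 0.10 and -0.04, so the numbers were not taken as pairs.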

Additional observations from a re-analysis of the deposited data

How the results depend on the processing

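Dkk1 stayed lower, and Dkk2, Dkk3 and Kremen1 higher, in the knockout arrays under each setting that gave a value. The 1 setting in which a member crossed the threshold was Dkk1 without control replicate 2, where it lay further below control (-0.93, limma adjusted p = 0.0134). With 1 array left out, differences ran from -0.93 to -0.52 for Dkk1, from 0.07 to 0.26 for Dkk2, from 0.24 to 0.40 for Dkk3 and from 0.05 to 0.17 for Kremen1. Dkk2 gave no value with the lowest 60% left out or without knockout replicate 2. The count of genes past the threshold was 0 in limma with all 6 arrays after quantile normalisation, where 1151 had an unadjusted p under 0.05. It was 30 with the values as deposited, 248 with that scaling and without control replicate 2, and between 0 and 298 with 1 array left out, the highest being without control replicate 2. The cause was not tested. The replicate block left the count at 0 and Dkk1 at -0.70 (limma adjusted p = 0.611), and it changed no call. Dim signals limit Dkk2 and 1421387_at of Kremen1, which lie near the offset of 16.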
